A study of Mus musculus with 2 samples.

Results

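*Acp5* and *Ctsk* encode the enzymes by which osteoclasts are usually recognised, and both were followed here cell by cell in bone marrow cells (BMCs) of 1 wild-type mouse and 1 mutant mouse. They are 2 of the 6001 genes listed in both count matrices, and they were chosen by name after earlier results of these data were known. The WT mouse carried the S1P f/f alleles without Cre. In the Cko mouse S1P, the protease encoded by *Mbtps1*, was ablated by Cre recombinase under the promoter of osterix (*Sp7*), a transcription factor of the osteoblast lineage. The study regards activity of this Cre in the hematopoietic lineage too as likely, not as settled. It also reports loss of *Mbtps1* exon 2 in sorted neutrophils from every Cko mouse examined for it. Both mice were C57BL6/J and 21 days old, and their BMCs came from crushed and digested limb bones after straining and lysis of red blood cells. Each genotype is 1 library, so there is no replicate check, no test was made, and differences between the mice cannot be told apart from differences between the genotypes.

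Osteoclasts are large multinucleated cells that form by fusion of monocyte-lineage precursors under the cytokines M-CSF and RANKL and that dissolve bone. *Acp5* encodes tartrate-resistant acid phosphatase, the classic histochemical stain for these cells. *Ctsk* encodes cathepsin K, the cysteine protease that cuts collagen in the acid pit beneath them. The pit is acidified by a vacuolar proton pump, of which *Atp6v0d2* encodes a subunit enriched in osteoclasts. Erythroid cells, the other cells that matter below, pass from progenitors with little hemoglobin RNA to cells in which hemoglobin RNA takes up most of the transcripts.

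The matrices held unique molecular identifiers (UMIs), that is, counted RNA molecules, for 6271 WT cells and 3662 Cko cells with at least 200 genes. The libraries held 56382459 and 34447224 UMIs, with medians of 6977 and 7440 UMIs per cell, and 28 barcodes of kept cells occurred in both libraries. A gene was listed only where it reached at least 4 UMIs in a cell, so an unlisted gene was not taken as 0. *Mbtps1* stood at 31.9 CPM in the WT and 31.1 CPM in the Cko, but the deleted exon lies away from the 3′ end that is read, so this level does not check the deletion. *Sp7* was listed with 38 UMIs in 14 cells of the WT and was not listed in the Cko. Levels are in CPM, the UMIs of a gene scaled to a fixed total over the cells named. Counts of 3′ ends carry no factor for transcript length, and all 95% intervals cover counting error only.

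*Acp5* (ENSMUSG00000001348.15) lies at chr9:22126727-22135711 on the minus strand of GRCm38 and overlaps *6530413G14Rik* on the plus strand, whose reads cannot be told apart from those of *Acp5* unless strand was used in counting, which is not given in the sources used here. *Ctsk* (ENSMUSG00000028111.4) lies at chr3:95499256-95509362 on the plus strand and overlaps no other annotated gene. RefSeq gives 3 start sites for *Acp5* and 1 for *Ctsk* in GRCm38.p6, and reads from the 3′ end do not tell which start a transcript used. The sequences are given for the windows around the most upstream *Acp5* start, chr9:22135697-22135996, and around the *Ctsk* start, chr3:95498960-95499259, each 250 bases before and 50 after the start in the direction of the gene, because RNA of the pair coincided in few cells. Capitals mark matches, on either strand, to AGATAA or TGATAA, the core bound by GATA factors, and to GAGGAA, the core bound by PU.1, letters that were chosen after the levels were known.
*Acp5* upstream start: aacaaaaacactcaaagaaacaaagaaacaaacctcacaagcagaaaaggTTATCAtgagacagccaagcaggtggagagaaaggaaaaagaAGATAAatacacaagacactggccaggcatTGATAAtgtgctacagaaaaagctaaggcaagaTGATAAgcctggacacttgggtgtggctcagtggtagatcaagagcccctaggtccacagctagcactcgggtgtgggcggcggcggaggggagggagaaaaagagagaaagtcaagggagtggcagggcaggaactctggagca
*Ctsk* start: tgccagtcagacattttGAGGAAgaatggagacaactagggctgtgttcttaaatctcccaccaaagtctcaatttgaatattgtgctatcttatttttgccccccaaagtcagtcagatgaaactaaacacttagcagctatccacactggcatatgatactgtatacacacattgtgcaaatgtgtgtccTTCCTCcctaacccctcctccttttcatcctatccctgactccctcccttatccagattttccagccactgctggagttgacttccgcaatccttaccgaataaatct
The upstream *Acp5* window held 1 match to AGATAA and 3 to TGATAA and none to GAGGAA. Of 32851 RefSeq promoter windows of this length, 6115 (18.6%) held at least 1 match to AGATAA or TGATAA and 22 (0.0670%) held at least 4. The *Ctsk* window held 2 matches to GAGGAA, which 28.3% of the windows hold, and none to AGATAA or TGATAA. The other *Acp5* windows, chr9:22131816-22132115 and chr9:22130549-22130848, held none of the 3 sequences, and the second of them held 1 match to CATGTG, an E-box present in 14.2% of windows. None of the 4 windows held the E-box CACGTG, present in 7.15% of windows. No matches overlapped in the windows shown, and a match is a run of letters and not a bound site.

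The enzymes differed in how many cells carried their counts. *Acp5* had 4736 UMIs in 1697 WT cells (27.1%, 95% interval 26.0 to 28.2) and 889 UMIs in 385 Cko cells (10.5%, 9.54 to 11.6). *Ctsk* had 242 UMIs in 34 WT cells (0.542%, 0.376 to 0.757) and 151 UMIs in 15 Cko cells (0.410%, 0.229 to 0.675). *Acp5* was thus spread over many cells and *Ctsk* was held by very few. In the WT 352 cells, and in the Cko 36 cells, were enough to hold 50% of the *Acp5* UMIs, whereas 3 and 2 cells were enough for 50% of the *Ctsk* UMIs. The 10 cells with the most held 6.82% of the WT *Acp5* UMIs (6.12 to 7.58) and 39.0% of the Cko ones (35.8 to 42.3). For *Ctsk* the 10 highest cells held 89.7% of the WT UMIs (85.1 to 93.2) and 96.7% of the Cko UMIs (92.4 to 98.9).

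**Figure D1:**
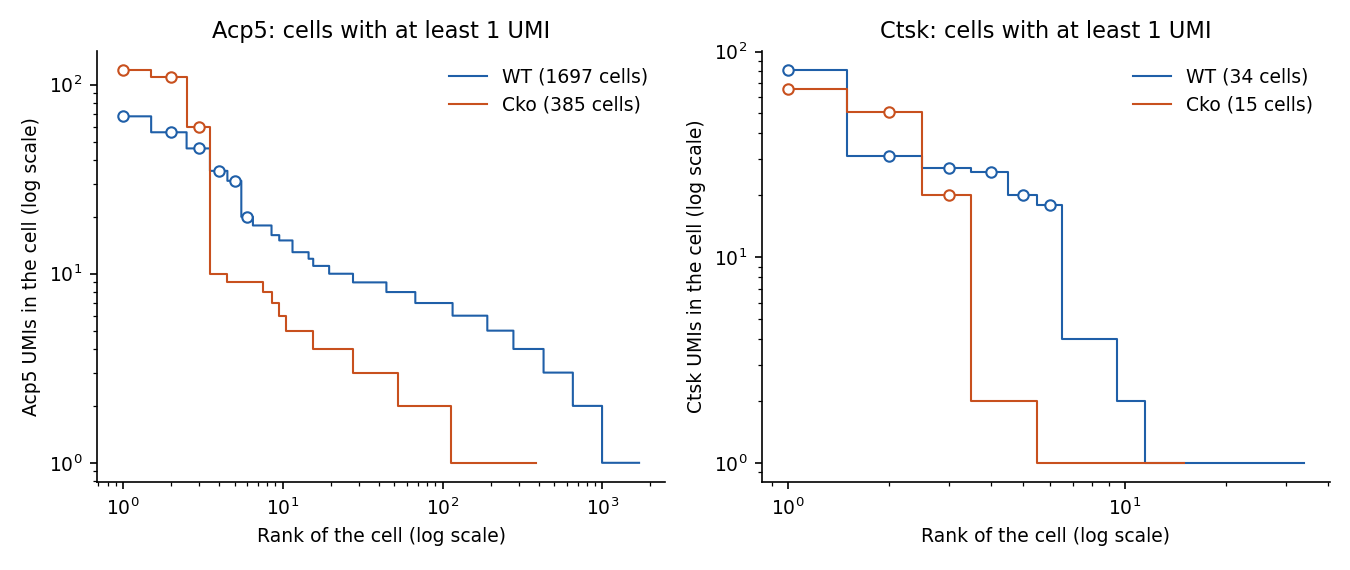
UMIs of *Acp5* (left) and *Ctsk* (right) in each cell that held at least 1, ordered from the highest cell, for the WT (blue) and Cko (orange) libraries; both axes are logarithmic and open circles mark the cells with at least 10 *Ctsk* UMIs. In the Cko the *Acp5* curve drops from 60 UMIs in the third cell to 10 in the next, and the *Ctsk* curves drop from 18 to 4 UMIs (WT) and from 20 to 2 UMIs (Cko).

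A gap in the *Ctsk* counts set a small group of cells apart. In the WT 6 cells held 18 or more *Ctsk* UMIs and the next 3 cells held 4, and in the Cko 3 cells held 20 or more and the next 2 held 2. The cells with at least 10 *Ctsk* UMIs are called Ctsk-high cells below, a limit set after the counts were seen. They were 0.0957% of the WT cells (0.0351 to 0.208) and 0.0819% of the Cko cells (0.0169 to 0.239), and their frequency did not differ beyond counting error. They carried 203 of the 242 WT *Ctsk* UMIs (83.9%) and 137 of the 151 Cko ones (90.7%). These shares follow in part from choosing the cells by *Ctsk*. In the Cko the gene was also listed only through these cells, since no other cell held more than 2 UMIs of it.

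In the 6 WT cells, ordered by *Ctsk*, the *Ctsk* UMIs were 81, 31, 27, 26, 20 and 18, and the *Acp5* UMIs of the same cells were 56, 68, 35, 31, 46 and 20. In the 3 Cko cells the *Ctsk* UMIs were 66, 51 and 20 and the *Acp5* UMIs 110, 119 and 60. The cells highest for *Ctsk* were thus also the cells highest for *Acp5* in their library: the highest other cell held 18 *Acp5* UMIs in the WT and 10 in the Cko. *Acp5* stood at 4469 CPM over the WT Ctsk-high cells and at 5876 CPM over the Cko ones, and *Ctsk* at 3544 and 2786 CPM. For 1 *Ctsk* UMI the WT cells held 1.26 *Acp5* UMIs and the Cko cells 2.11. The Ctsk-high cells held 5.41% of all WT *Acp5* UMIs but 32.5% of the Cko ones, 256 and 289 UMIs.

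**Figure D2:**
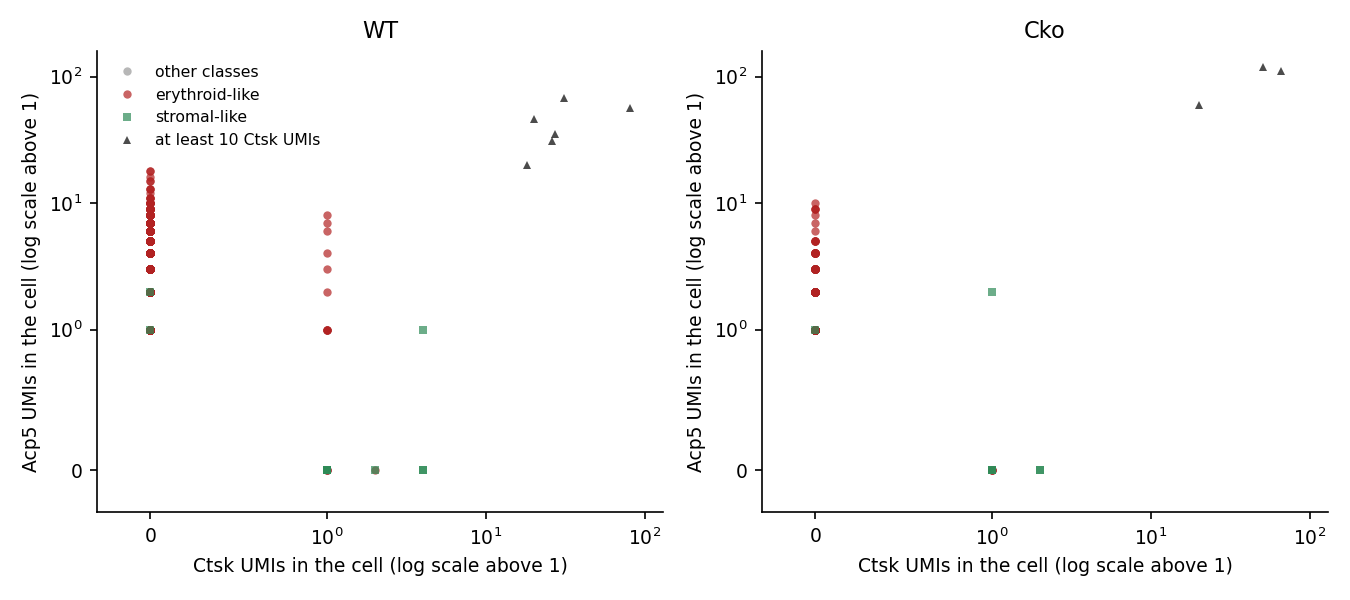
*Acp5* UMIs against *Ctsk* UMIs in each cell that held at least 1 UMI of either, WT left and Cko right, on axes that are logarithmic above 1; many cells share a point. The Ctsk-high cells (black triangles) lie alone at the upper right, erythroid-like cells (red) rise along the axis without *Ctsk*, and stromal-like cells (green) reach at most 4 *Ctsk* UMIs.

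The other genes of the osteoclast pathway were read in these cells from a list of 31, of which 15 were listed in both libraries, 2 in the WT only (*Tnfrsf11a* and *Src*) and 14 in neither. Among the unlisted were *Tcirg1* and *Clcn7* of the acid secretion machinery, the fusion proteins *Dcstamp* and *Ocstamp*, *Calcr* and *Oscar* among the receptors, and the ligand *Tnfsf11* (RANKL). Of the 13 marker genes fixed for osteoclasts, 7 were unlisted in both libraries, and the Ctsk-high cells held 4 to 6 of the 6 listed for the WT and 2 to 4 of the 5 listed for the Cko. This count is not independent of the cells, because *Atp6v0d2* and, in the WT, *Tnfrsf11a* were listed only through them. No count for other cells is given beside it. No cluster was named after these markers. The proton pump subunit *Atp6v0d2* was held by all of them, with 10, 13, 8, 6, 3 and 4 UMIs in the WT cells and 7, 14 and 7 in the Cko cells. These were 44 of 46 WT UMIs (95.7%) and 28 of 31 Cko UMIs (90.3%) of the gene, and no other cell held more than 1. *Atp6v0d2* thus reached the 4 UMIs needed for listing only through the Ctsk-high cells, so these shares are not independent of them.

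*Tnfrsf11a* encodes RANK, the receptor for RANKL. It had 27 UMIs in the WT, of which 12 lay in the 6 Ctsk-high cells, with 1 to 4 in each. No other WT cell held more than 1, so *Tnfrsf11a* too was listed only through the Ctsk-high cells. The kinase *Src* had 8 of its 68 WT UMIs in 4 of these cells. *Nfatc1*, the transcription factor induced by RANKL, was held by all Ctsk-high cells, at 1 to 4 UMIs in WT and 1 to 6 in Cko cells. Its level was 279 CPM and 244 CPM, against 8.76 and 7.74 CPM in myeloid-like cells and 1.07 and 2.26 CPM in the other erythroid-like cells. The membrane protease *Mmp14* was likewise held by all, at 1 to 6 UMIs in WT and 2 to 4 in Cko cells. The secreted protease *Mmp9* ranged from 2 to 20 UMIs in the WT cells, and in the Cko cells it had 13, 65 and 0. *Csf1r*, the receptor for M-CSF, was held by 5 of the 6 WT cells and by all 3 Cko cells, with at most 7 UMIs. The signalling adaptors *Tyrobp* (14 to 46 UMIs in WT, 46 to 77 in Cko cells) and *Fcer1g* (8 to 16 and 15 to 27) and the myeloid transcription factor *Spi1* (1 to 16 and 12 to 16) were in every cell. These 3 genes are also used by other myeloid cells. *Trem2*, another myeloid receptor, was at 0 in the WT cells and at 1, 2 and 7 UMIs in the Cko cells. No other Cko cell held more than 3 *Trem2* UMIs, so in the Cko this gene was also listed only through a Ctsk-high cell. *Itgb3*, an integrin subunit of osteoclasts and platelets, was held by 1 cell in each library.

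Of the 14 genes of the macrophage list, *C1qa*, *C1qb*, *C1qc*, *Vcam1*, *Fcna* and *Mrc1* were at 0 in all 9 Ctsk-high cells, as was the bone matrix gene *Col1a1*. *Axl* was held by 3 WT cells and 1 Cko cell, at 52.4 and 40.7 CPM against 15.8 and 3.83 CPM in myeloid-like cells. *Hmox1* was held by 1 cell of each library and *Slc40a1* by 1 Cko cell. *Cd5l* was at 0 in the WT cells and unlisted in the Cko, and *Adgre1*, *Cd163* and *Siglec1* were unlisted in both libraries. *Apoe*, an apolipoprotein gene also on the macrophage list, was held by all 9, at 2 to 12 UMIs in WT and 4 to 11 in Cko cells. Its level was 681 CPM over the WT cells and 427 CPM over the Cko cells, against 82.9 and 190 CPM in myeloid-like cells. Hemoglobin genes took 0.224 to 1.52% of the UMIs of the WT cells and 0.0506 to 0.103% of those of the Cko cells, whereas neutrophil-like cells of the same libraries stood at 0.627% and 0.102%. WT cell 6, which had the highest hemoglobin share and the fewest *Ctsk* UMIs of the 6, also held 3 UMIs of *Gata1* and 4 of *Klf1*, erythroid transcription factors that were at 0 in the other Ctsk-high cells. *Car2*, a carbonic anhydrase used by erythroid cells and on the osteoclast pathway list as well, had 19 UMIs in that cell, 1 to 6 in the other WT cells and 0 to 2 in the Cko cells. Its level of 594 and 61.0 CPM over the Ctsk-high cells lay below that of erythroid-like cells, 3974 and 3652 CPM. The neutrophil gene *S100a8* stood at 343 UMIs in Cko cell 1 and at most 22 in any other Ctsk-high cell. Scrublet called none of the 9 as a doublet. At a resolution of 0.4, however, all 9 lay in an unnamed cluster led by *Ly6d*, *Retnlg*, *Mmp9* and *Hba-a2*. Scrublet called 58 of its 200 WT cells and 13 of its 29 Cko cells as doublets, against 2.03% and 1.39% of all kept cells. The WT Ctsk-high cells held 7263 to 11894 UMIs in total and the Cko ones 15806 to 16823. The strongest genes that all 9 held, by the smaller fold over the other cells of the library, were *Ctsk*, *Atp6v0d2*, *Acp5*, *S100a4*, *Cd68*, *Cstb*, *Nfatc1*, *Mmp14*, *Atp6v1b2* and *Vim*. The place of *Ctsk* follows from choosing the cells by it, and *Atp6v0d2* was listed only through these cells. *Cd68* encodes a lysosomal glycoprotein of phagocytes and *Cstb* an inhibitor of cathepsins. Further subunits of the proton pump followed among the first 25, namely *Atp6v0c*, *Atp6v0b*, *Atp6v1d* and *Atp6v0e*, at 4.63 to 7.35 times the level of the other cells.

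**Figure D3:**
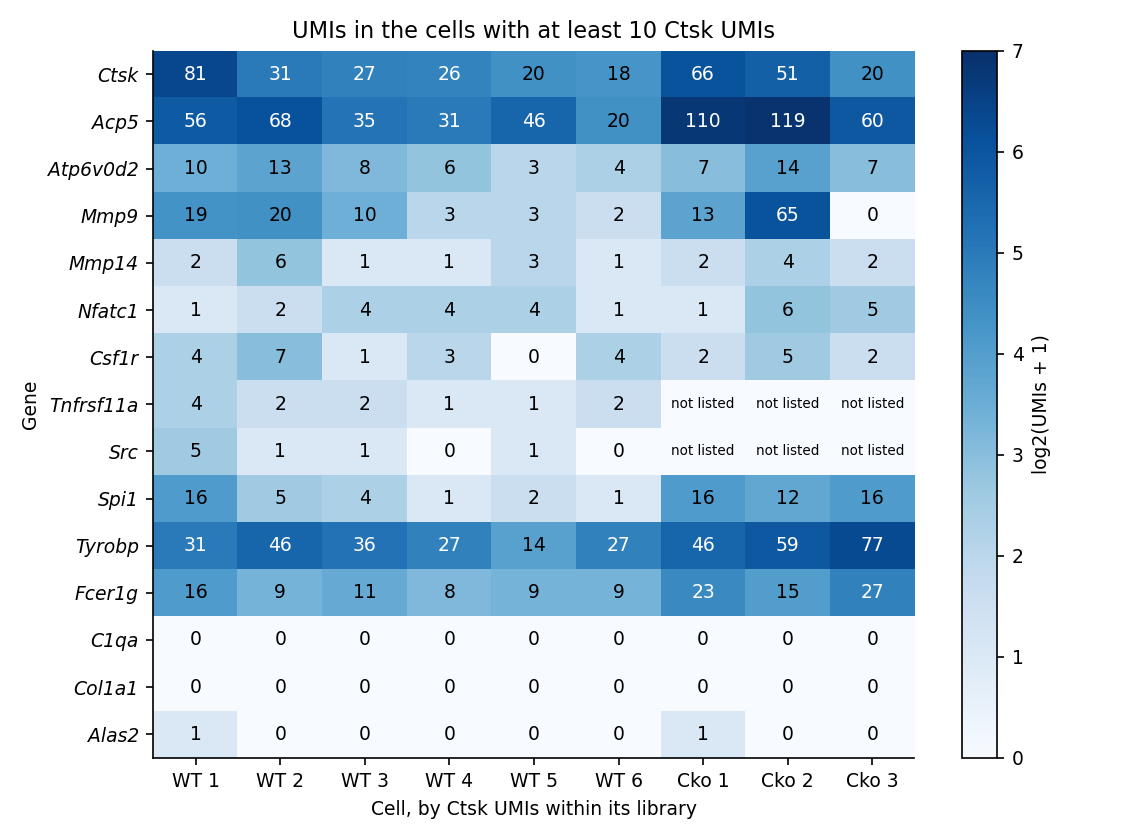
UMIs of 15 genes (rows) in the 6 WT and 3 Cko cells with at least 10 *Ctsk* UMIs (columns, ordered by *Ctsk*); numbers are UMIs and shading is log2(UMIs + 1). *Acp5* and *Atp6v0d2* are present in every cell, *C1qa* and *Col1a1* in none, and *Mmp9* ranges from 0 to 65.

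Outside the Ctsk-high cells the remaining *Ctsk* UMIs lay partly in stromal-like cells, the cluster led by *Col1a1*, *Col1a2*, *Sparc* and *Fabp4*. *Fabp4* was on the endothelial marker list, and the separate Cko clustering left 17 cells, with 7 *Ctsk* UMIs, in an unnamed cluster led by it. In the WT 10 of 31 stromal-like cells held 20 *Ctsk* UMIs (88.3 CPM), and in the Cko 6 of 18 held 8 UMIs (63.8 CPM). Their ratio Cko/WT was 0.722 (0.275 to 1.71), which does not resolve a difference. All 10 WT and all 6 Cko stromal-like cells with a *Ctsk* UMI held at least 10 UMIs of *Sparc*, but only 4 and 0 of them held at least 10 of *Col1a1*. The other 18 WT cells and 6 Cko cells with *Ctsk* had 1 UMI each apart from 1 WT cell with 2. In neutrophil-like cells *Ctsk* had 2 UMIs in 685 WT cells and none in 1218 Cko cells. In macrophage-like cells it had none in 51 WT cells, which allows up to 7.83 CPM. Over all cells *Ctsk* stood at 4.30 CPM in the WT and 4.39 CPM in the Cko, a ratio of 1.02 (0.828 to 1.26). Without the Ctsk-high cells the levels were 0.693 and 0.407 CPM (ratio 0.588, 0.295 to 1.11).

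Most *Acp5* UMIs of the WT lay in erythroid-like cells, whereas in the Cko their share depended on the Ctsk-high cells. The classes were formed by clustering both libraries together with *Acp5* and *Ctsk* left out, and were named from fixed marker genes. Erythroid-like cells, 3597 in the WT (57.4% of its cells) and 577 in the Cko (15.8%), held 92.9% of the WT *Acp5* UMIs and 63.3% of the Cko ones. Without the Ctsk-high cells they held 87.5% and 30.8% of the UMIs of the library, and with each library clustered on its own 82.9% and 28.5%. The separate Cko clustering left 218 cells, with *Acp5* at 7.28 CPM, in an unnamed cluster led by *Mt2*. No such cluster formed in the separate WT clustering, and the joint cluster led by *Mt2* was erythroid-like. The separate values therefore set unlike erythroid-like classes side by side. All 9 Ctsk-high cells fell into an erythroid-like cluster in the joint clustering, although hemoglobin took at most 1.52% of their UMIs. When each library was clustered on its own, all 9 fell into a neutrophil-like cluster, and at a joint resolution of 0.4 into an unnamed one. Erythroid values are therefore given with and without them. With them *Acp5* stood at 127 CPM in WT erythroid-like cells (123 to 131) and 79.1 CPM in Cko ones (72.7 to 85.9). Without them it stood at 120 CPM (116 to 123) and 38.8 CPM (34.3 to 43.6).

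Myeloid-like cells, the neutrophil-like and macrophage-like cells and a cluster of mixed progenitor and monocyte markers, held little *Acp5*. The level was 8.89 CPM for the WT (7.48 to 10.5, 1822 cells) and 5.26 CPM for the Cko (4.33 to 6.31, 2422 cells). The erythroid-like level was thus 14.3 times the myeloid-like level in the WT (log2 3.84, 3.59 to 4.09) and 15.0 times in the Cko (log2 3.91, 3.62 to 4.21). Without the Ctsk-high cells the log2 ratio was 3.75 in the WT and 2.88 in the Cko, the latter 7.37 times. With each library clustered on its own, which put the Ctsk-high cells among the myeloid-like ones, the erythroid-like level was 3.74 times the myeloid-like level in the WT and 3.17 times in the Cko, and 6.88 and 12.4 times when the Ctsk-high cells were also left out. The Cko erythroid-like class of that clustering lacked the *Mt2*-led cells, so its values are not matched to those of the WT. Among genes with at least 100 UMIs, 11.3% in the WT and 11.4% in the Cko lay over 2 times higher in erythroid-like than in myeloid-like cells. Within the myeloid-like cells the order was the same in both libraries: neutrophil-like cells were lowest (3.57 CPM in the WT, 3.24 in the Cko), the progenitor and monocyte cluster followed (8.46 and 6.15 CPM), and the macrophage-like cells were highest. The 51 WT macrophage-like cells held 32 *Acp5* UMIs (83.5 CPM, 57.1 to 118) and the 9 Cko ones 6 UMIs (129 CPM, 47.4 to 281). The median hemoglobin share was 13.6% of UMIs in the WT macrophage-like cells and 0.185% in the Cko ones, and its part in their *Acp5* level was not tested. In the WT the macrophage-like level was 0.658 times the erythroid-like level (log2 -0.60, -1.15 to -0.10).

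B cell-like cells, led by the pre-B genes *Igll1*, *Vpreb1* and *Vpreb3*, held *Acp5* at 32.2 CPM in WT (27.6 to 37.4, 775 cells) and 29.2 CPM in Cko marrow (24.7 to 34.4, 543 cells). The 2 levels did not differ beyond counting error (ratio 0.907, 0.723 to 1.14). T/NK-like cells held 51.9 CPM in 18 WT cells (19.1 to 113) and 101 CPM in 63 Cko cells (69.5 to 142). A cluster led by *Igkc*, *Iglc2*, *Ighm* and *Ms4a1*, which was left unnamed because its class II genes matched the dendritic list, held 70.1 CPM in 28 WT cells (33.6 to 129) and 168 CPM in 39 Cko cells (114 to 239). In that cluster 5.57% of 377 genes lay over a Cko/WT ratio of 2. No cell of the B cell-like, T/NK-like or *Igkc*-led classes held more than 3 *Acp5* UMIs. Stromal-like cells had 4 UMIs in the WT and 3 in the Cko. In the WT the order of levels was erythroid-like, macrophage-like, the *Igkc*-led cluster, T/NK-like, B cell-like, stromal-like, progenitor and monocyte, and neutrophil-like, and the intervals of neighbours in this order overlapped, apart from the last pair and, with the Ctsk-high cells, the first. In the Cko without the Ctsk-high cells the *Igkc*-led, macrophage-like and T/NK-like cells stood above the erythroid-like cells.

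**Figure D4:**
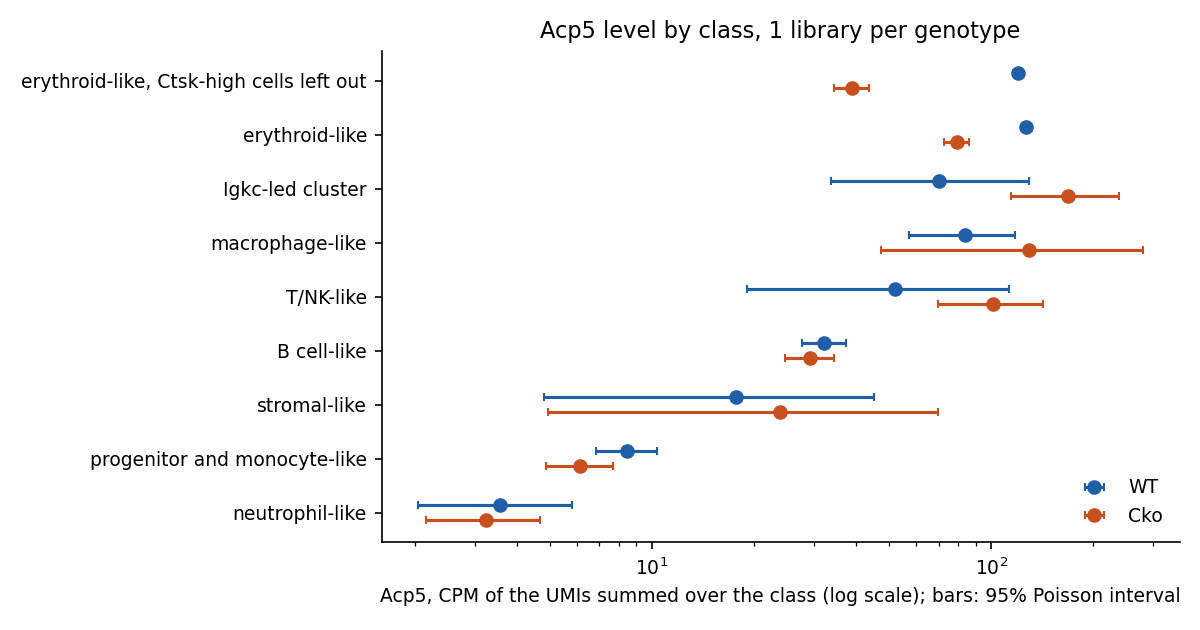
*Acp5* in CPM of the UMIs summed over each class, on a logarithmic axis, for the WT (blue) and Cko (orange) libraries; bars are 95% Poisson intervals, which cover counting error only. Erythroid-like cells change from 79.1 to 38.8 CPM in the Cko when the Ctsk-high cells are left out and from 127 to 120 CPM in the WT, and neutrophil-like cells are lowest in both.

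Shares of cells with an *Acp5* UMI gave the same order of erythroid-like over neutrophil-like cells at equal depth. After thinning each cell to 3000 UMIs, 22.7% of WT erythroid-like cells (21.3 to 24.1) and 9.53% of Cko ones (7.26 to 12.2) held an *Acp5* UMI, against 39.4% and 20.5% without thinning, at medians of 7108 and 9048 UMIs per cell. B cell-like cells, fixed as the background class, stood at 10.5% in both libraries after thinning, at medians of 5516 and 7208 UMIs. The Cko erythroid-like share taken over all stages was therefore not above that of B cell-like cells. B cell-like cells were in turn above neutrophil-like cells, at 0.876% of the WT cells (0.322 to 1.90) and 0.985% of the Cko cells (0.510 to 1.71), so that the B cell-like share is no common background of the library.

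*Acp5* was not even among erythroid-like cells but was highest at middle hemoglobin shares. The cells were divided by the share of their UMIs in the 4 adult hemoglobin genes at 1, 10 and 50%, and the values below leave out the Ctsk-high cells, of which all but 1 lay under 1%. In the WT *Acp5* stood at 17.4 CPM under 1% (14.9 to 20.2, 559 cells), at 222 CPM from 1 to 10% (212 to 233, 547 cells), at 271 CPM from 10 to 50% (259 to 283, 818 cells) and at 28.5 CPM at 50% or more (25.2 to 32.0, 1667 cells). The 2 middle stages held 41.8% and 47.4% of the *Acp5* UMIs of the class, and 89.0% and 75.4% of their cells held at least 1 UMI. The median cell of these stages held 3 and 2 UMIs, and the median cell of the first and last stage held 0.

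The Cko followed the same course at a lower level. Hemoglobin genes took 0.627% of the UMIs of neutrophil-like cells in the WT and 0.102% in the Cko. Whether the limit at 1% parts like cells in both libraries was not tested. *Acp5* stood at 2.35 CPM under 1% (0.861 to 5.11, 110 cells), at 109 CPM from 1 to 10% (88.3 to 133, 46 cells), at 124 CPM from 10 to 50% (105 to 144, 114 cells) and at 5.55 CPM at 50% or more (2.96 to 9.49, 304 cells). After thinning, the middle stages held an *Acp5* UMI in 28.3% of cells (16.0 to 43.5) and 28.9% (20.8 to 38.2), above the B cell-like share, and in the WT in 50.6% (46.4 to 54.9) and 49.3% (45.8 to 52.8). Because hemoglobin fills the later cells, the levels were also scaled to UMIs outside the hemoglobin genes. The WT levels of the 4 stages were then 17.4, 231, 365 and 97.8 CPM and the Cko levels 2.35, 114, 178 and 18.6 CPM. The third stage remained the highest in both libraries under both scalings, although in the Cko the intervals of the middle stages overlapped in CPM of all UMIs (not in CPM outside hemoglobin).

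**Figure D5:**
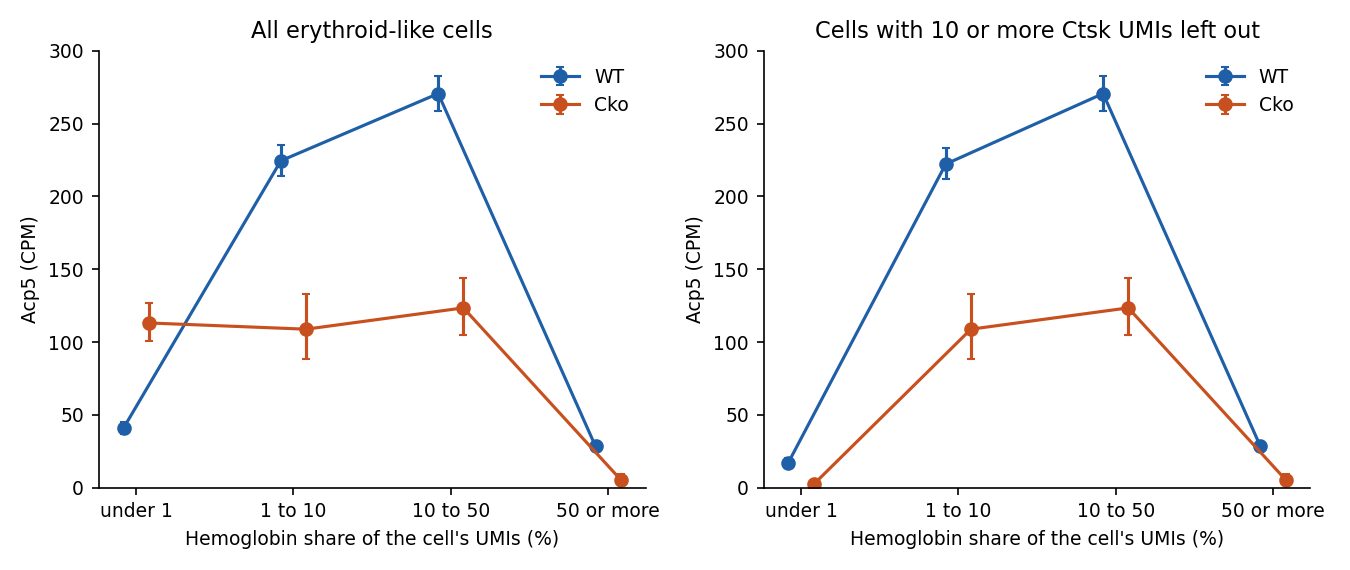
*Acp5* (CPM) in erythroid-like cells divided by the hemoglobin share of their UMIs, with all cells (left) and without the cells with at least 10 *Ctsk* UMIs (right), for the WT (blue) and Cko (orange); bars are 95% Poisson intervals. Leaving out 3 Cko cells lowers the first Cko point from 113 to 2.35 CPM, while the points from 1% upward keep their order.

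The ratio Cko/WT of *Acp5* in erythroid-like cells depended on the Ctsk-high cells. With them it was 0.623 (0.570 to 0.680), and without them 0.324 (0.285 to 0.366). Of 5238 genes with at least 100 UMIs, 1.15% lay below a Cko/WT ratio of 1/2 in the Cko erythroid-like cells without the Ctsk-high cells, and 1.07% with them. Under 1% hemoglobin the ratio was 2.76 (2.37 to 3.21) with the Ctsk-high cells, where 2.79% of genes lay over 2, and 0.135 (0.0489 to 0.300) without, so that its direction was set by 3 Cko cells and 5 WT cells. From 1 to 10% it was 0.490 (0.395 to 0.601) without them, from 10 to 50% it was 0.456 (0.386 to 0.537), and at 50% or more it was 0.195 (0.103 to 0.339). The genes below a Cko/WT ratio of 1/2 were 1.88, 1.52, 3.27 and 4.31% of those measured in the 4 stages. Over the 2 middle stages together, 1365 WT and 160 Cko cells, the level was 246 CPM in the WT and 118 CPM in the Cko, a ratio of 0.479 (0.420 to 0.543). These stages held 8.01% and 19.9% of the Cko cells of the class against 15.2% and 22.8% of the WT ones. Over all cells of the library *Acp5* was 84.1 CPM in the WT and 25.8 CPM in the Cko (ratio 0.307, 0.286 to 0.330), a value that joins the smaller share of erythroid-like cells with their lower level. The background over all cells was 6.08% of genes below a Cko/WT ratio of 1/2.

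Of 5 acid phosphatase genes, *Acp1*, *Acp5* and *Acp6* were listed. *Acp1*, a cytosolic phosphatase, stood at 345 CPM in WT erythroid-like cells and 321 CPM in Cko ones, and at 98.0 and 84.2 CPM in myeloid-like cells. The Ctsk-high cells held *Acp1* at 140 and 122 CPM, so the high level of *Acp5* in them was not shared by that gene. All 7 lysosomal cathepsins were listed. *Ctsb* and *Ctsd* were highest in macrophage-like cells, at 2124 and 937 CPM in the WT, and stood at 227 and 262 CPM in the WT Ctsk-high cells. *Ctss* and *Ctsh*, proteases of antigen-presenting cells, stood at 157 and 87.3 CPM in the WT Ctsk-high cells against 498 and 209 CPM in the WT macrophage-like cells. *Ctsz* was nearly equal in these WT cells, at 332 against 347 CPM, and *Ctsl* stood at 17.5 against 67.8 CPM. In the Cko Ctsk-high cells *Ctss*, *Ctsh* and *Ctsz* stood at 325, 0 and 305 CPM, against 1099, 539 and 517 CPM in the Cko macrophage-like cells. Of the 7, *Ctsk* alone was at 0 in the macrophage-like cells of both libraries, 51 and 9 cells.

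The genes with the pattern most like *Acp5* over 13 class-by-library groups, by Pearson's r of log2(CPM + 10) among 5656 genes, were *Btg2* (0.89), *1600020E01Rik* (0.89), *Add1* (0.85), *Them6* (0.84) and *Ccdc6* (0.84). Over 49 groups from a finer clustering, added after the data were seen and without the Ctsk-high cells, they were *Ccdc6* (0.74), *St3gal6* (0.74), *Gclc* (0.72), *Rgs12* (0.70) and *Hars* (0.69). For *Ctsk* over the 13 groups they were *Ackr1* (0.96), *Clca1* (0.95), *Klf9* (0.91), *Eng* (0.91) and *Ryk* (0.89), and over the 49 groups *Spred1* (0.62), *Mmp14* (0.59), *Itgav* (0.54), *Ext1* (0.50) and *Acp5* itself (0.47). Only groups with at least 20 cells were used, which left out the 18 Cko stromal-like cells. Over the 13 groups *Ctsk* was highest in the 31 WT stromal-like cells (88.3 CPM), then in Cko and WT erythroid-like cells with the Ctsk-high cells (19.7 and 6.26 CPM). Without the Ctsk-high cells the leading genes over the 49 groups became *Mgp* (0.98), *Igfbp5* (0.94) and *Cxcl12* (0.94), of which *Igfbp5* and *Cxcl12* are among the leading genes of stromal-like cells. The groups of a library share its depth and free RNA, so these values describe the 2 libraries only.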

How the data were processed

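Single-cell RNA-Seq of BMCs was made with the Chromium Single Cell 3′ v2 kit from 1 WT and 1 Cko mouse. The authors deposited UMI counts, whole numbers without normalization, for each gene in each cell; the submitters' processing notes name Cell Ranger, whose version is not given in the sources used here, and GRCm38. The total row and total column of each matrix were left out. Barcodes with at least 200 genes were kept. Scrublet in scanpy 1.11.5 called 127 WT and 51 Cko doublets at an expected rate of 5%, and these were kept. Both libraries were clustered together with Seurat 5.3.0 in R 4.3.3 on 6001 shared genes without *Acp5* and *Ctsk*, with 2000 variable genes, 20 components, 20 neighbours, the mitochondrial and ribosomal shares regressed out, and the lowest resolution that gave 10 clusters (0.1). A cluster was named from fixed markers when at least 3 counted, that is, at least 25% of its cells held the marker at a fold of at least 1.5, and when its leading genes did not go against the name; 1 cluster with both progenitor and monocyte markers was kept within the myeloid-like cells. Clusters and names were rebuilt here and may differ from the study's.

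Levels are CPM of UMIs summed over a class. Intervals at 95% are exact Poisson for sums, exact binomial for shares and exact conditional for ratios. Only the ratio intervals were run on simulated data. Of 5254 genes simulated for the Cko/WT ratio in erythroid-like cells, 200 were changed, 100% of these had the right sign and 96.2% of all intervals held the true value. The simulated sums were Poisson counts, the model that the interval assumes. The run therefore does not check the interval for UMIs that lie together in few cells. Where no UMI was found, the level that 3 UMIs would give is stated as the limit. No test was made. The members, marker and pathway lists and alternatives were chosen with earlier results of these data known. Genes were named by these lists, by likeness of pattern (the 5 highest), by the fold in the Ctsk-high cells after the data were seen, and *Mbtps1*, *Sp7* and the hemoglobin genes. Computing used scipy 1.17.1 and numpy 2.4.6 under Python 3.11.15, and plots matplotlib 3.10.9. An item withheld from this text is not reported here.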

Additional observations from a re-analysis of the deposited data

Results flagged for a closer look

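The Cko/WT ratio of *Acp5* pointed in opposite directions in 2 classes, and the interval of neither included equality. In the *Igkc*-led cluster, 28 WT and 39 Cko cells, the log2 ratio was 1.26 (0.20 to 2.46), from 10 and 31 UMIs. In erythroid-like cells without the Ctsk-high cells it was -1.63 (-1.81 to -1.45). The difference between the classes was not tested, because each genotype is 1 library and the intervals cover counting error only.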

How the results depend on the processing

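The 15 results were recomputed under alternatives that gave 86 values. Of these, 56 stayed within the interval of the reported value, 29 moved out of it and 1 reversed. The log2 Cko/WT ratio of *Acp5* in erythroid-like cells, -0.68 as clustered, was -1.02 with each library clustered on its own (also without the Ctsk-high cells), -1.58 and -1.56 at resolutions of 0.4 and 1.2, -1.30 with classes from marker scores, -0.84 with each cell weighted equally and -1.63 without the Ctsk-high cells. It was below 0 under every alternative run. The value from separate clustering compares unlike erythroid-like classes, because the *Mt2*-led cells formed an unnamed cluster in the Cko only. The log2 ratio of erythroid-like over myeloid-like cells, 3.84 in the WT and 3.91 in the Cko, was 1.90 and 1.66 with separate clustering, which moved the Ctsk-high cells into a myeloid-like class, 2.78 in the WT when they were also left out, 3.17 and 3.55 with marker scores and 4.25 and 4.40 over UMIs outside hemoglobin. In the Cko it was 3.17 and 3.05 at resolutions of 0.4 and 1.2, 2.88 without the Ctsk-high cells and 4.34 without the progenitor and monocyte cluster. The log2 Cko/WT ratio under 1% hemoglobin, 1.46, was -2.89 without the Ctsk-high cells and 0.26 in the lowest quartile of hemoglobin share; in the third quartile it was -1.94, and the highest quartile gave no value because the Cko had no *Acp5* UMI there. Without the Ctsk-high cells the 10 highest cells held 3.21% and 12.2% of the *Acp5* UMIs and 53.8% and 85.7% of the *Ctsk* UMIs in the WT and Cko, and the log2 Cko/WT ratio of *Ctsk* was -0.77 (-1.76 to 0.15). Shares of erythroid-like cells with an *Acp5* UMI were 17.4% and 6.76% at 2000 UMIs and 39.4% and 20.5% without thinning. Leaving out the Ctsk-high cells or the progenitor and monocyte cluster was chosen after seeing the data. No paired analysis was possible because each genotype has 1 library. Depth limits the values of the T/NK-like, macrophage-like, stromal-like and *Igkc*-led cells, which rest on 3 to 33 *Acp5* UMIs each.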
